A study of Mus musculus with 2 samples.

Results

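The genes described here encode receptors for the transmitters glutamate, GABA, glycine and acetylcholine. They were chosen by name, as the non-control probes whose gene name on the array belongs to the ionotropic and metabotropic glutamate receptors, the GABA-A and GABA-B receptors, the glycine receptors, or the nicotinic and muscarinic acetylcholine receptors. The names gave 127 probes of 73 genes, of 41168 probes and 28781 genes in all. Of these 73, 72 encode receptor subunits and 1 encodes a scaffold protein, not a receptor, that was taken in by the spelling of its name. The scaffold gene was not well above background on either array.

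Total RNA came from a pair of mouse neural progenitor lines of strain 129/Ola, one overexpressing Pax6 and one overexpressing EGFP, each measured on 1 Agilent 1-colour whole mouse genome array. Pax6 is a transcription factor needed for eye and forebrain formation, and EGFP, a green fluorescent protein, served as the control. Both lines were made from N31, progenitors obtained by way of induced pluripotent stem cells made from NSEB5-2C, which carry doxycycline-inducible transgenes for Klf4, c-Myc, Sox2 and Oct3/4, and both received their gene from a CAG promoter on a Tol2 transposon. RNA was taken after 24 h of doxycycline, when the submitters saw altered morphology in EGFP cells but none in Pax6 cells. The control therefore shares the reprogramming factors, the doxycycline and the transposon with the Pax6 line, and cells without doxycycline were not analysed here. The labels do not say whether each line is 1 clone.

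Each line has 1 array, so replicates are lacking, no p-value is given, and this number limits the precision of all differences. The brightest of 3 Pax6 probes read 822 on the Pax6 array and 557 on the EGFP array, a difference of 0.34 (1.27-fold). The others gave 0.26, over 9 spots, and at least 0.29, at 14.8 on the Pax6 array and a dim 2.504 on the EGFP array. Whether these probes read the transgene is not known here, and the direction of every difference rests on the array labels. The errors below, given after ±, are the scanner software's measurement error carried to the log2 scale and leave out the variation between cultures. Signals are the software's processed signals, and differences are log2 values, Pax6 minus EGFP, after each array was scaled to its 75th percentile (a signal of 965 on the Pax6 array and 828 on the EGFP array). A gene was counted as different when its difference was at least 2-fold. Of 43379 non-control spots, 67.2% on the Pax6 array and 64.7% on the EGFP array were well above background, and none was saturated. Of 10 progenitor markers, 9 were well above background on both arrays and Hes5 was below. By at least 2-fold, 1 was higher and 2 were lower, where 2.34% and 2.47% of all measured genes were. Sox2, which is also a reprogramming factor, read 307 on the Pax6 array and 79.2 on the EGFP array (3.33-fold higher). Nestin (Nes) read 1711 on the Pax6 array and 4678 on the EGFP array (3.18-fold lower). Slc1a3 read 27.5 on the Pax6 array and 306 on the EGFP array, a difference of -3.70, with -1.80 at a second probe. Of 11 neuronal markers 9 were measured, with a median difference of -0.34, while Dcx and Syp were dim on both. Among the 9, 7 lay below 0 and 2 above. By at least 2-fold, 1 was lower and 0 were higher, where 2.47% and 2.34% of all measured genes were.

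Ionotropic receptors are ion channels opened by the transmitter, whereas metabotropic, GABA-B and muscarinic receptors act through G proteins. The channels assemble from several subunits, and most need particular partners: NMDA receptors need GluN1, most GABA-A receptors hold alpha, beta and gamma subunits, and the muscle acetylcholine receptor is built from alpha 1, beta 1 and delta with either the fetal gamma or the adult epsilon subunit. Progenitor cells carry some of these receptors before synapses form, and GABA and glutamate are known to act on their division.

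The number of receptor genes with a signal depended on the flag used. Of the 73 genes, 33 (45.2%) passed the scanner's flag for signal well above background on 1 array or both, against 66.9% of all 28781 genes on the array. A looser flag, signal positive and significant over background, took in 63 of the 73, and 55 on both arrays. Of the 33, 24 were measured on both arrays, 8 on the Pax6 array only and 1 on the EGFP array only. The whole array leaned the same way, with 17831 genes measured on both, 1071 on the Pax6 array only and 341 on the EGFP array only. The 8 were Gabra5, Gabrg3, Grin3b, Grm5, Chrnd, Chrna4, Chrna10 and Chrm5, all with signals between 10.2 and 20.2 on the Pax6 array, against a lowest signal well above background of 9.30 there and 10.3 on the EGFP array. The dim array then allows only a bound, given as "at least" so many fold, and a bound under 1-fold enters counts and medians at 0. These bounds leave out the measurement error. For Chrnd, Gabrg3 and Grm5 the dim signal lay above 10.3, so the difference is given as measured, with its error. Genes said to be below background did not pass the stricter flag, used throughout, though many passed the looser one. The signals of the 40 other genes reached at most 11.4 on either array. In RNA of a whole culture, fewer cells of a type and less RNA per cell cannot be told apart.

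**Figure D1:**
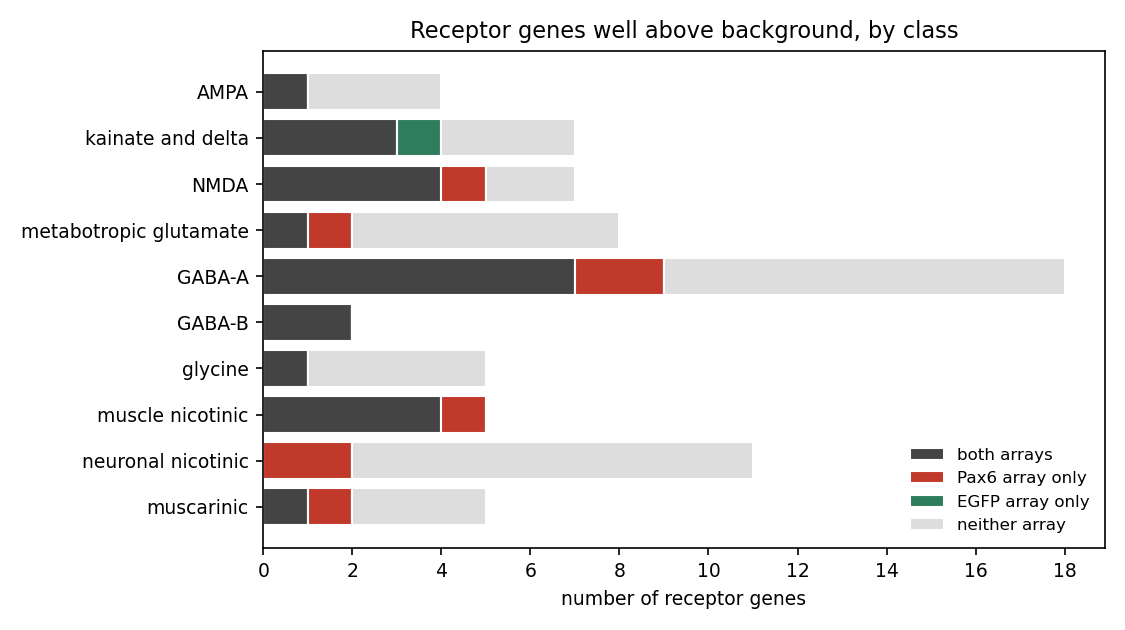
Number of receptor genes in each class that were well above background on both arrays, on 1 array only or on neither. All 5 muscle nicotinic genes were measured, against 2 of 11 neuronal nicotinic genes.

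The measured receptor genes were mostly alike on the arrays, with Chrna1 and Gabrg1 as the genes at least 2-fold higher in the Pax6 line. Of the 33 measured genes, 2 were higher by at least 2-fold and 0 were lower by as much, where 2.34% of the 19243 genes measured in all were higher and 2.47% lower by that margin (4.81% in all). The count of lower genes in the whole table was 475 against 450 higher, and normexp background correction with quantile normalization gave 108 lower and 176 higher. That correction adds an offset of 50 to every signal, which by itself draws the differences of dim genes towards 0, here and in the values given below. Of the 24 receptor genes measured on both arrays, 22 lay within 2-fold and 18 (75%) within 1.5-fold, against 88.0% of all genes measured on both within 1.5-fold. The 9 genes seen on 1 array were dim on the other and cannot be placed so. The median difference of the 33 was 0.01, beside a median of -0.01 over all genes. Genes seen on the Pax6 array only cannot enter this median below 0, by the rule for bounds. Over the 24 receptor genes measured on both arrays the median was -0.05, beside -0.03 over all genes measured on both. Among the 24 genes measured on both arrays, 8 (33.3%) differed by more than 2 times the measurement error, 6 higher and 2 lower. Of all genes measured on both, 17.6% did so, 1286 higher and 1857 lower.

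**Figure D2:**
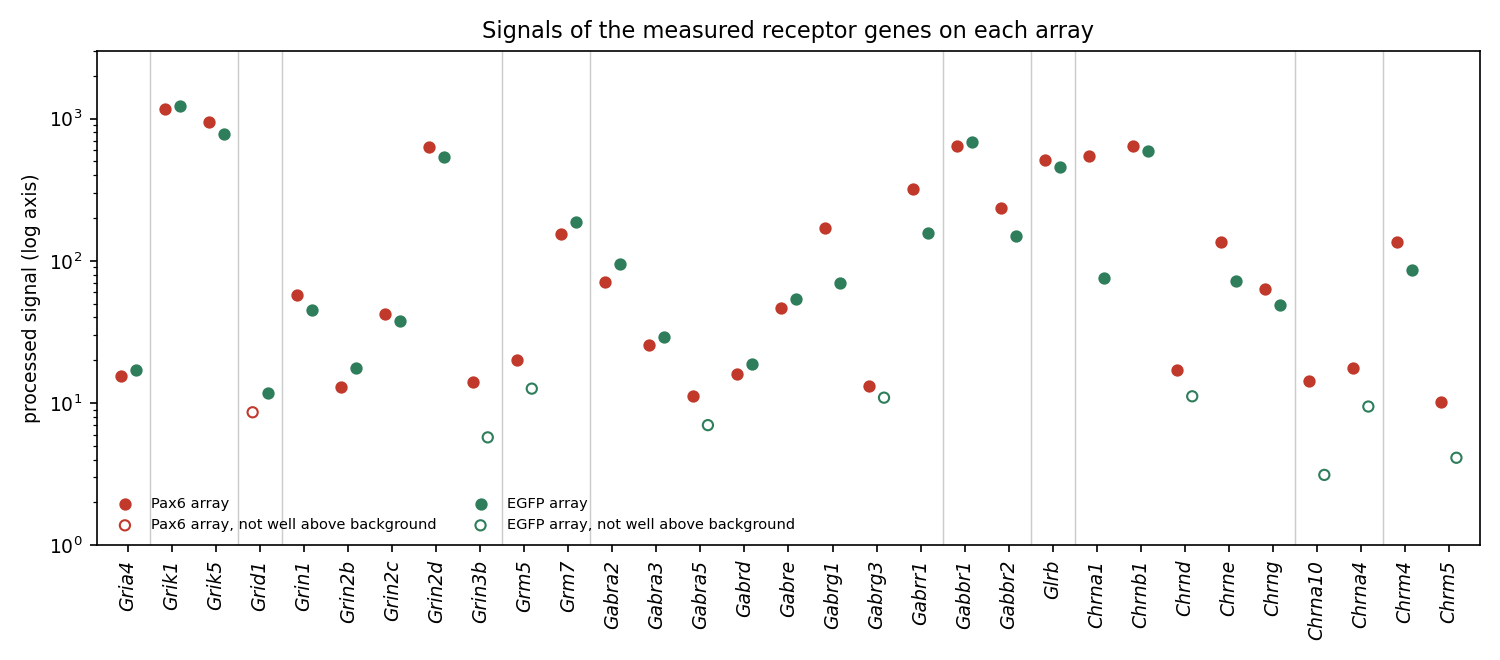
Processed signals (log axis) of 31 of the 33 measured receptor genes, grouped by class, on the Pax6 array (left point of each pair) and the EGFP array (right point). Open circles are signals not well above background. Levels of different genes come from different probes and are not comparable. Chrna1 has the widest gap between the arrays.

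Chrna1 encodes the alpha 1 subunit of the muscle acetylcholine receptor, which carries most of the acetylcholine binding site. Its brightest probe (chromosome 2, 73409771 to 73409830, mm7) had a signal of 547 on the Pax6 array and 75.6 on the EGFP array. The log2 difference was 2.64 ± 0.21, or 6.21-fold higher in the Pax6 line. A second probe (chromosome 2, 73407049 to 73407108) read 46.6 on the Pax6 array and a dim 8.16 on the EGFP array, a difference of at least 1.95. Both probes thus placed Chrna1 higher in the Pax6 line, and the difference was 1.96 with normexp background correction.

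The other subunits of the muscle receptor were all detected on at least 1 array, and the 3 measured on both differed by less than 2-fold. Chrne, the adult epsilon subunit, had a signal of 136 on the Pax6 array and 72.4 on the EGFP array, a difference of 0.69 ± 0.21, and its second probe was below background on both. Chrng, the fetal gamma subunit, read 63.6 on the Pax6 array and 48.8 on the EGFP array (0.16 ± 0.22). Chrnb1, the beta 1 subunit, read 638 on the Pax6 array and 592 on the EGFP array (-0.11 ± 0.20). Chrnd, the delta subunit, passed the flag on the Pax6 array alone, at 17.0 against 11.2 on the EGFP array (0.39 ± 0.45). Of the 5 subunit genes, 4 lay above 0 and Chrnb1 below, but Chrng, Chrnb1 and Chrnd differed by less than their measurement error. Chrnd also entered this count only through its signal on the Pax6 array, so the count does not show a shared direction.

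Promoters of the genes higher by at least 2-fold, and of the muscle subunit genes beside Chrna1 that have an entry, are shown because muscle subunit promoters are known to be driven through E-boxes, the CANNTG motif read by basic helix-loop-helix factors. The sequences are RefSeq's on GRCm38.p6, from 250 bases before to 50 after the gene's start, with E-boxes in capitals. They are chr2:73580289-73580588 (minus strand) for Chrna1, chr11:70619145-70619444 (minus) for Chrne, chr1:87205561-87205860 (plus) for Chrng, chr11:69795888-69796187 (minus) for Chrnb1 and chr5:70842568-70842867 (minus) for Gabrg1.
Chrna1: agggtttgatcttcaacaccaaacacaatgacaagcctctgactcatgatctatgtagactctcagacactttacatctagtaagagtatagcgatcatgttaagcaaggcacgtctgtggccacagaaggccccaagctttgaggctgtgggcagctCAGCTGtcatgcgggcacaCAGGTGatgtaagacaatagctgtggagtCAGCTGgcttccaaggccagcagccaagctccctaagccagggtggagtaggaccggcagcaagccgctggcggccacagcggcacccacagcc
Chrne: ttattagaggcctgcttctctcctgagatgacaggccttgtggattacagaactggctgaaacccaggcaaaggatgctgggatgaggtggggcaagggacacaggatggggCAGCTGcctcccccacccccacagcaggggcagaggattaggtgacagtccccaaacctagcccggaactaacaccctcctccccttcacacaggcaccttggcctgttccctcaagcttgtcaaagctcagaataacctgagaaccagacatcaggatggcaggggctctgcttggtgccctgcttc
Chrng: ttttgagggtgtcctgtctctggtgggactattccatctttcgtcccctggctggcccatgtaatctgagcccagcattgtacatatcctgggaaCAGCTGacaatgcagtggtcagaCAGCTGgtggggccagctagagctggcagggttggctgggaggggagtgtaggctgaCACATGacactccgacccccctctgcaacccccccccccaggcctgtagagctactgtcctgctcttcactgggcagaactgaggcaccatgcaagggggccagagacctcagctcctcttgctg
Chrnb1: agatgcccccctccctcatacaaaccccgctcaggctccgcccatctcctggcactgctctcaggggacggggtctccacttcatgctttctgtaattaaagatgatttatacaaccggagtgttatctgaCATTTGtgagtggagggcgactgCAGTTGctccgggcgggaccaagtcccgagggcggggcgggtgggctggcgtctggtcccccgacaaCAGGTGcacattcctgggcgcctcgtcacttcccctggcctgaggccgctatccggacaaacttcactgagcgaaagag
Gabrg1: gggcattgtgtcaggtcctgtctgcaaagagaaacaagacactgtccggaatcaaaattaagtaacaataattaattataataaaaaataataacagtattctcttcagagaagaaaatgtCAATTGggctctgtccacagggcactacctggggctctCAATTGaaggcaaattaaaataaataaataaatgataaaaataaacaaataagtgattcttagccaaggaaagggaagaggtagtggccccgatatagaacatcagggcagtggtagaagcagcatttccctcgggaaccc
CANNTG reads the same on both strands. The Chrna1 promoter held 3 matches, beginning 92, 73 and 44 bases before the start. The outer ones read CAGCTG and the middle one, at 73 bases, read CAGGTG. Chrng held 3 matches, of which 2 were CAGCTG, Chrnb1 held 3, Chrne 1 and Gabrg1 2. Of all 32851 promoters of this length, 72.3% held at least 1 CANNTG and 16.3% at least 1 CAGCTG, so a match is common. The N-box CCGGAA, searched on both strands and known from synaptic muscle genes, was present in Chrne and Gabrg1 and in 14.9% of all promoters. Entries were found for 52 of the 73 genes.

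Measured markers of skeletal muscle lay mostly below 0, with 4 below and 1 above. Of 8 muscle markers, 5 (62.5%) were measured, against 66.9% of all genes on the array. By at least 2-fold, 0 were higher and 1 was lower, where 2.34% and 2.47% of all measured genes were. The 5 had a summed signal of 226 on the Pax6 array and 263 on the EGFP array and a median difference of -0.24. Myog, Myf5 and Ckm were below background on both arrays, and Myod1 read 19.7 on the Pax6 array and 17.6 on the EGFP array (-0.07 ± 0.33). Myf6, a muscle regulatory factor, passed the flag on the Pax6 array alone, at 14.0 against 6.29 on the EGFP array, and was higher by at least 0.21 (log2). As measured, Myf6 differed by 0.93 ± 0.68, less than 2 times its error. Acta1 (-0.67 ± 0.33) and Mylpf (-0.24 ± 0.21), both of the contractile apparatus, were below 0. Des, the gene of desmin, was 2.91-fold lower in the Pax6 line (-1.54), and -0.55 with normexp background correction. All 7 fibroblast markers were measured. Of these, 3 were at least 2-fold higher in the Pax6 line (Fap, Dcn and Col3a1) and 3 at least 2-fold lower (Col1a1, Thy1 and Col1a2). Of all measured genes, 2.34% were higher and 2.47% lower by that margin. Thy1 differed by -0.34 with normexp background correction. Their median difference was 0.27. Their summed signal was 62387 on the Pax6 array and 94663 on the EGFP array, of which Col1a2 made up 46506 and 90871. The part of muscle and fibroblast markers in the Chrna1 difference was not tested.

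Of the genes that build or regulate nicotinic receptor sites, 6 of the 11 with a probe were measured, 1 was higher and 0 were lower by 2-fold or more, with a median of -0.35, where 2.34% of all measured genes were higher and 2.47% lower. The 1 gene was Lrp4, the agrin receptor of muscle. Its signal was 195 on the Pax6 array and 35.8 on the EGFP array, a difference of 2.23 ± 0.23, or 4.68-fold higher, and 1.30 with normexp background correction. The other Lrp4 probe was below background on both arrays. The ligand of Lrp4, Agrn (agrin), read 29560 on the Pax6 array and 33524 on the EGFP array (-0.40 ± 0.20). Rapsn, Musk and Dok7, the anchor, kinase and adaptor that cluster the muscle receptor, were below background on both arrays.

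Neuronal nicotinic and muscarinic receptors gave little signal. Of the 11 neuronal nicotinic genes 2 were measured, both on the Pax6 array only. Chrna4 read 17.5 against 9.45 on the EGFP array (at least 1.46-fold higher). Chrna10, a hair cell subunit, read 14.3 against 3.13 (at least 1.18-fold). As measured, Chrna4 differed by 0.67 ± 0.45 and Chrna10 by 1.97 ± 1.26, each less than 2 times its error. The genes of the common brain subunits alpha 7 (Chrna7) and beta 2 (Chrnb2) were below background on both arrays. Of the muscarinic receptors, Chrm4, a Gi-coupled receptor, read 136 on the Pax6 array and 86.0 on the EGFP array, a difference of 0.45 ± 0.21. Its second probe, at 10.67 on the Pax6 array and 12.3 on the EGFP array, gave the opposite sign (-0.43), so the Chrm4 direction rests on 1 probe. Chrm5, at 10.2 on the Pax6 array and 4.13 on the EGFP array, gave no fold.

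Gabrg1 encodes the gamma 1 subunit of the GABA-A receptor, known from glia and some brain nuclei. Its probe (chromosome 5, 70123722 to 70123781, mm7) was spotted 10 times on each array, which gives its technical spread. The spots ranged from 158 to 187 on the Pax6 array, with a median of 170, and from 64.2 to 80.8 on the EGFP array, with a median of 67.6. Before scaling, the spots of the arrays did not overlap, which concerns the technical spread of this probe and not the variation between cultures. The mean difference was 1.09 ± 0.21, or 2.12-fold higher in the Pax6 line, and it varied between spots by an SD of 0.09, from 0.93 to 1.25. The lowest spots therefore fell just short of 2-fold. The difference was 0.69, within 2-fold, with normexp background correction, whose offset draws dim signals together. The other Gabrg1 probe was below background on both arrays.

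**Figure D3:**
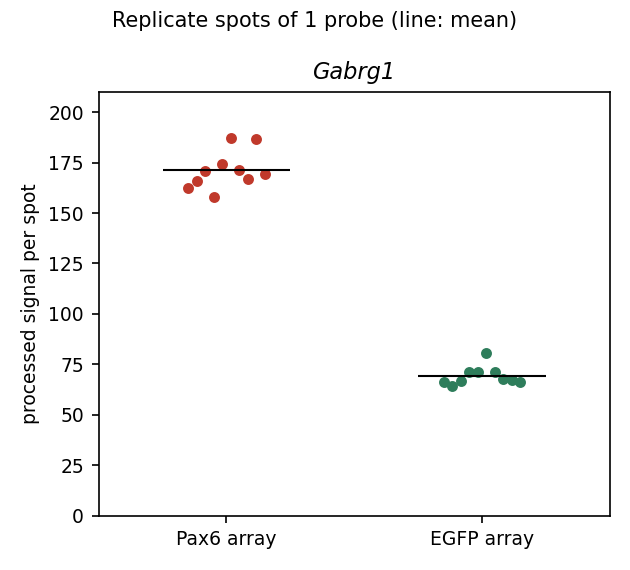
Processed signal of each replicate spot of 1 Gabrg1 probe (10 spots) on the Pax6 array (left) and the EGFP array (right), with the mean as a line. The Gabrg1 spots sit between 158 and 187 on the Pax6 array and between 64.2 and 80.8 on the EGFP array.

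The other GABA-A subunits with a signal on each array lay within 2-fold, in both directions. Gabrr1, the rho 1 subunit known from the retina, read 321 on the Pax6 array and 156 on the EGFP array (0.82 ± 0.21, 1.76-fold). Gabra2, an alpha subunit abundant in the embryonic brain, read 71.5 on the Pax6 array and 95.03 on the EGFP array (-0.63 ± 0.22). Its other measured probes gave -0.48 and 0.02, so the Gabra2 probes disagreed in sign, and with normexp background correction Gabra2 differed by 0.11. Gabra3, Gabre and the extrasynaptic Gabrd differed by -0.41, -0.43 and -0.47, each by at most 2 times its error, and both Gabre probes were below 0. Of those seen on the Pax6 array only, Gabrg3 differed by 0.06 ± 0.42 and Gabra5 gave no fold. Of 18 GABA-A genes 9 were measured. Among those below background on both arrays were the beta subunit genes Gabrb1 and Gabrb2.

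The GABA-B receptor is an obligate pair of Gabbr1, which binds GABA, and Gabbr2, which couples to the G protein, and both genes were measured. Gabbr1 read 643 on the Pax6 array and 687 on the EGFP array (-0.32 ± 0.20), and its other measured probes gave 0.04 and -0.61. Gabbr2 read 235 on the Pax6 array and 150 on the EGFP array (0.43 ± 0.21), with 0.15 at its second measured probe. The sign was shared by the Gabbr2 probes and not by the Gabbr1 probes. Of the glycine receptor genes, Glrb, the beta subunit that binds the anchor gephyrin, read 508 on the Pax6 array and 458 on the EGFP array (-0.07 ± 0.20, and 0.01 after scaling by the median). The glycine-binding alpha subunit genes Glra1, Glra2, Glra3 and Glra4 were all below background.

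Partners of the inhibitory receptors nearly all gave a signal, and 1 of them differed by at least 2-fold. Of 15 genes 14 (93.3%) were measured, against 66.9% of all genes on the array. By 2-fold or more, 0 were higher and 1 was lower, where 2.34% of all measured genes were higher and 2.47% lower. Their median difference was -0.13. Kctd8, an auxiliary subunit of GABA-B receptors, read 29.9 on the Pax6 array and 90.5 on the EGFP array, 3.53-fold lower in the Pax6 line (-1.82 ± 0.23). It differed by -0.79 with normexp background correction. Its relatives Kctd12 and Kctd12b differed by 0.01 and -0.75 ± 0.21, Kctd16 was below background, and Gphn, the gephyrin gene, differed by -0.11.

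Among the ionotropic glutamate receptors, 10 of 18 genes were measured, and the 8 with a signal on each array lay within 2-fold. The kainate receptor genes Grik1 and Grik5, a low-affinity and a high-affinity subunit, were detected, whereas Grik2, Grik3 and Grik4 were below background. Grik1 read 1168 on the Pax6 array and 1232 on the EGFP array (-0.30 ± 0.20), with -0.24 at its second probe. Grik5 read 943 on the Pax6 array and 786 on the EGFP array (0.04 ± 0.20). The only AMPA receptor gene above background, Gria4, read 15.5 on the Pax6 array and 17.1 on the EGFP array, near the limit of detection (-0.35 ± 0.35, and 0.13 with normexp background correction). Gria1, Gria2 and Gria3 were below background on both arrays.

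The obligate NMDA receptor subunit gene Grin1 read 57.6 on the Pax6 array and 45.3 on the EGFP array (0.13 ± 0.22). Of its partners, Grin2d, the subunit of early development, read 630 on the Pax6 array and 536 on the EGFP array (0.01 ± 0.20). Grin2c read 42.2 on the Pax6 array and 37.5 on the EGFP array (-0.05 ± 0.24), with 0.03 after scaling by the median and values above 0 under the other scalings run. These genes differed by less than their measurement error. Grin2b, the main subunit of the embryonic forebrain, read 13.0 on the Pax6 array and 17.6 on the EGFP array (-0.65 ± 0.36) and Grin3b was at least 1.17-fold higher, while Grin2a and Grin3a were below background.

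Delta receptors bind cerebellins at synapses. Grid1, a gene of this class, was well above background on the EGFP array only, at 8.61 on the Pax6 array and 11.7 on the EGFP array. Its bound was at least 1.47-fold lower in the Pax6 line. As measured, Grid1 differed by -0.67 ± 0.49, less than 2 times its error.

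Of the 8 metabotropic glutamate receptor genes 2 were measured. Grm7, a presynaptic receptor that lowers transmitter release, read 153 on the Pax6 array and 186 on the EGFP array (-0.50 ± 0.21). Its other probes read 45.8 and 27.0 on the Pax6 array and 63.3 and 36.7 on the EGFP array, with differences of -0.69 and -0.66. All 3 Grm7 probes were thus lower in the Pax6 line, each by less than 2-fold. Grm5, which is coupled to phospholipase C and known from neural progenitors, read 20.2 on the Pax6 array and 12.6 on the EGFP array, where it was dim (0.45 ± 0.40).

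**Figure D4:**
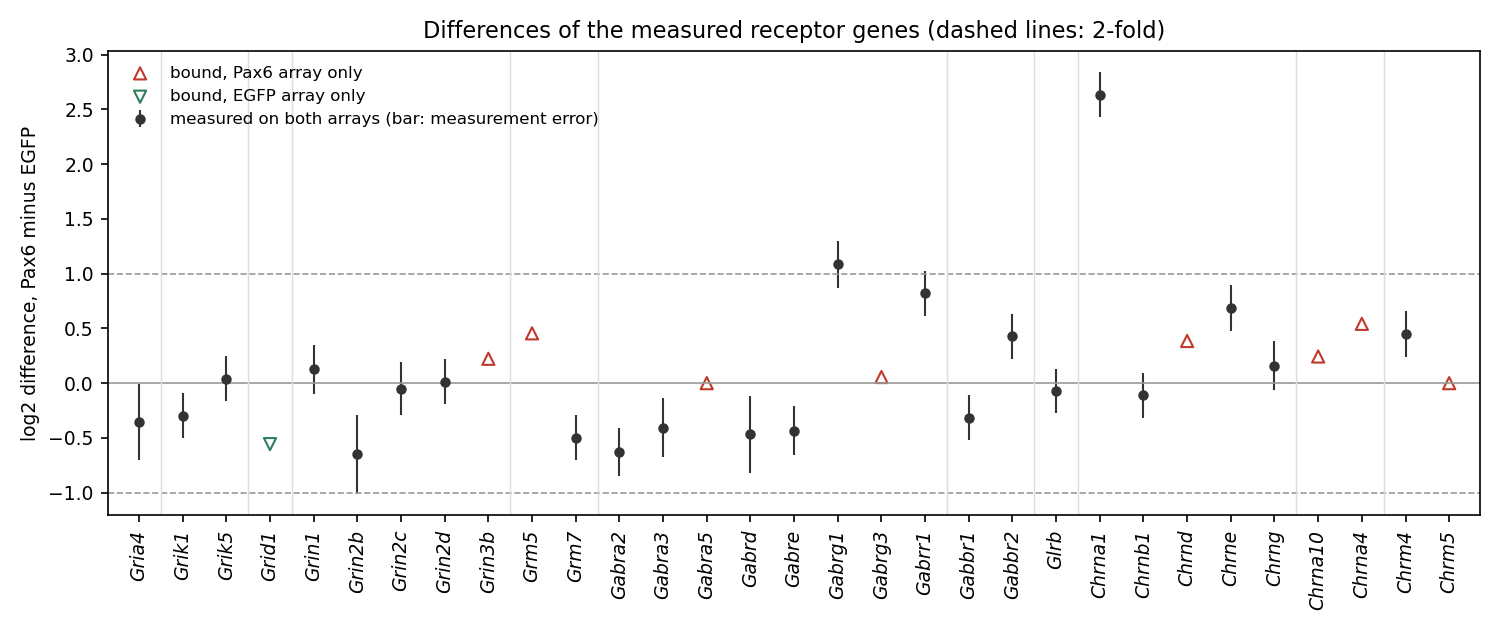
Log2 difference (Pax6 minus EGFP) of 31 of the 33 measured receptor genes by class. Bars are the measurement error of genes measured on both arrays. Triangles are lower bounds, except for Chrnd, Gabrg3 and Grm5, which are shown as measured. Dashed lines mark 2-fold. Chrna1 at 2.64 and Gabrg1 at 1.09 lie above the upper line and none lies below the lower one.

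For 10 receptor genes more than 1 probe was measured. The probes shared their sign in 6 of these, among them Chrna1, Gabbr2, Gabre, Grik1 and Grm7, and differed in 4, among them Chrm4, Gabbr1 and Gabra2. The probes of 1 gene lay a median of 0.44 apart and at most 0.88, for Chrm4, beside a median size of 0.35 for the differences of the 33 genes.

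Genes that work with ionotropic glutamate receptors included several that were higher in the Pax6 line. Of 28 such genes with a probe 21 were measured, 5 were higher and 1 was lower by 2-fold or more, with a median of 0.16, where 2.34% and 2.47% of all genes were. Neto1, an auxiliary subunit of kainate receptors, passed the flag on the Pax6 array alone, at 73.8 against 7.57 on the EGFP array, at least 6.13-fold higher. Its relative Neto2 read 590 on the Pax6 array and 327 on the EGFP array (0.63 ± 0.20, and 0.64 at a second probe). Both Neto genes were therefore above 0.

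The neuronal pentraxin genes, whose secreted and membrane-bound proteins gather AMPA receptors, were higher as well. Nptxr, the membrane-bound form, read 968 on the Pax6 array and 330 on the EGFP array (1.33 ± 0.20, 2.52-fold), with 0.52 at its second probe. Nptx1 read 239 on the Pax6 array and 85.3 on the EGFP array (1.27 ± 0.21, 2.404-fold). Grip1, an AMPA receptor scaffold, read 72.0 on the Pax6 array and 25.7 on the EGFP array (1.27 ± 0.25, 2.41-fold). A second Grip1 probe read 12.7 on the Pax6 array and a dim 2.59 on the EGFP array, a difference of at least 0.08. The 2-fold difference of Grip1 therefore rests on 1 probe. The remaining pentraxin gene, Nptx2, was below background.

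The cerebellins, the ligands of the delta receptors, went in opposite directions. Cbln1 read 275 on the Pax6 array and 96.4 on the EGFP array (1.29 ± 0.21, 2.45-fold higher). Its second probe, dim on the EGFP array, differed by 0.73 ± 0.45. Cbln2 read 68.0 on the Pax6 array and 211 on the EGFP array (-1.86 ± 0.21, 3.62-fold lower), and its other probes gave -1.83 and -1.17. Every measured probe of each cerebellin gene kept its sign. With normexp background correction Neto1 differed by 0.87, Nptx1 by 0.94, Cbln1 by 0.94 and Grip1 by 0.53, within 2-fold, while Nptxr (1.25) and Cbln2 (-1.15) stayed beyond it. The mean of a gene's probes was 0.92 for Nptxr and 0.67 for Grip1.

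Genes of transmitter synthesis and transport held no gene at least 2-fold higher. Of 22 genes 15 were measured, 2 of them at least 2-fold lower, with a median of -0.17, where 2.47% of all measured genes were lower by that margin. These were Slc1a3, a glial glutamate transporter, at 27.5 on the Pax6 array and 306 on the EGFP array (-3.70 ± 0.23, and -1.80 at a second probe), and Slc5a7, the choline transporter of cholinergic neurons, at 109 on the Pax6 array and 675 on the EGFP array (-2.85 ± 0.21). Chat, the enzyme that makes acetylcholine, read 21.7 on the Pax6 array and 18.8 on the EGFP array (-0.01 ± 0.32). With normexp background correction Slc1a3 differed by -2.18 and Slc5a7 by -2.26. Slc1a3 also stands in the progenitor marker list. Abat, which breaks down GABA, differed by 0.81 ± 0.21 and Gad2, which makes it, by -0.67 ± 0.24.

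**Figure D5:**
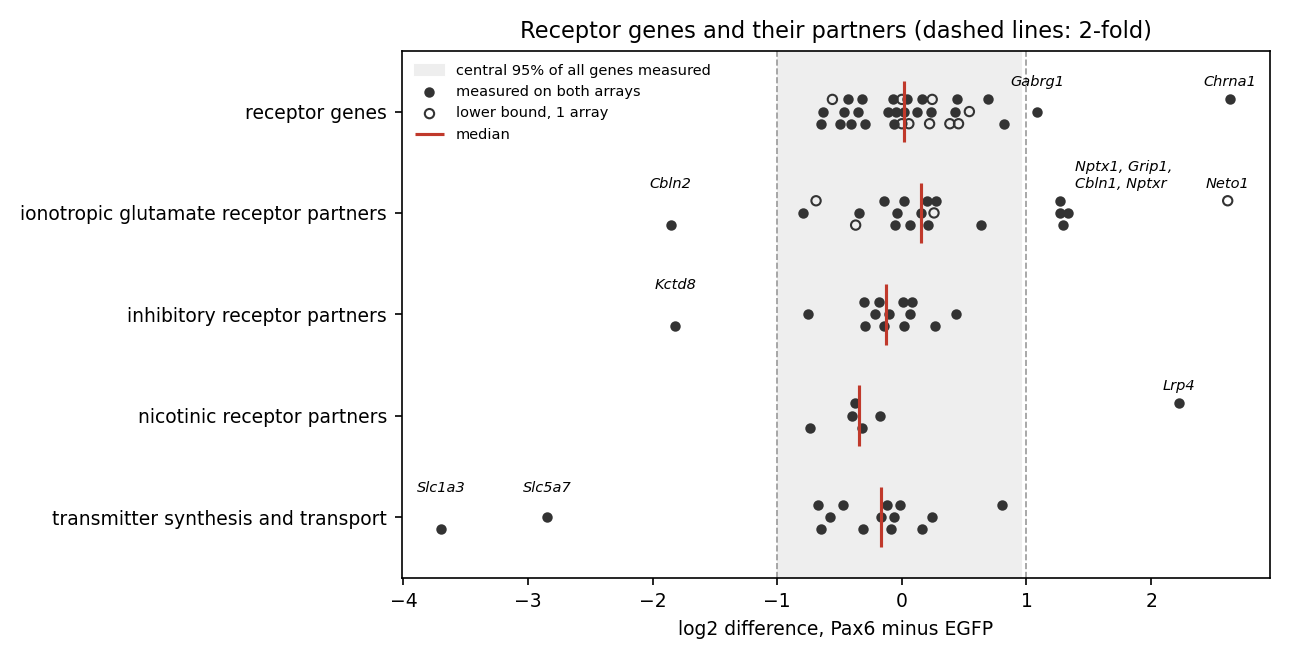
Log2 difference (Pax6 minus EGFP) of the measured receptor genes and of 4 lists of genes that work with them. The median of each list is in red and the central 95% of all measured genes in grey. Open circles are genes dim on either array, mostly lower bounds. Genes at least 2-fold different are named, such as Chrna1 at 2.64 and Slc1a3 at -3.70.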

How the data were processed

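Per the labels' protocols, RNA was amplified linearly and labelled with Cy3. Per the file headers, the scanner software was Agilent Feature Extraction 10.7.3.1, with spatial and multiplicative detrending on. Its processed signals are the deposited intensity values, which carry no normalization between arrays and hold a surrogate value where a spot lay too close to background. The deposited flags (unit other) mark spots well above background or outliers, per the file headers. The deposited series table equals the same intensity values (largest relative difference 0.0).

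Here 52 outlier spots on the Pax6 array and 51 on the EGFP array were left out, replicate spots were averaged on the log2 scale, and each array's 75th percentile over probes was subtracted. Each gene is represented by its brightest probe (mean of both arrays). For a gene well above background on 1 array, the dim value was raised to that array's lowest clearly detected signal where it lay under it. Among the receptor probes, 92 of 127 accessions matched a current RefSeq symbol, the same as the array's name in each case. Coordinates of probes come from the deposited files (mm7). Exons are not stated, for want of an mm7 annotation. The file headers give the same slide and scan for both arrays.

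The receptor genes, the partner and marker lists and the rules were chosen with earlier results of these data known. Measured receptor genes are named, except some genes that are not reported here and enter only the counts and medians. Partner genes are named in full when at least 2-fold different, and others as relatives or defining markers, a choice made with their values in view. Other settings tried were median scaling, cyclic loess, quantile normalization alone or after normexp background correction (offset 50, limma 3.58.1), the series table, the mean or median of probes, other filters on dim probes, dim values as measured, and other rules of size. On simulated Pax6 and EGFP arrays of 18405 genes, the steps called 96% of genes changed by -1.5, 98% by 1.5 and 100% by -2 or 2 (log2). The changed genes were drawn from brighter genes only, with noise of spots and none between cultures. These shares therefore do not apply to dim receptor genes or to differences between cultures. Python 3.11.15 and R 4.3.3 were used.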

Additional observations from a re-analysis of the deposited data

How the results depend on the processing

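The 2 receptor genes at least 2-fold higher were Chrna1 and Gabrg1 after median scaling, cyclic loess or quantile normalization, with the series table, with probes of a gene averaged or their median taken, with a filter on both arrays and when the difference also had to exceed 2 times its error. The count was 1, Chrna1, with normexp background correction and with a rule of at least 3-fold. It was 5 with dim values as measured, which adds Chrna10, Chrm5 and Grin3b, and 5 with no filter on dim probes, where 4 genes were also at least 2-fold lower. These 4, among them Gabrp, Gria1 and Grin3a, and the added higher ones (Chrm3, Chrna7 and Gria2) lay below background on both arrays. The count of lower genes was 0 under the other alternatives. With no filter the median of the receptor genes was -0.30; under the others it lay between -0.05 and 0.09. A looser flag, signal positive and significant over background, kept 63 genes in place of 33. Over all genes, counts of higher and lower genes were 450 and 475, but 176 and 108 with normexp background correction, 1041 and 1156 without a filter, 707 and 571 with dim values as measured, and 164 and 106 at 3-fold. Of 321 values of the 33 receptor genes under 10 alternatives, 302 moved by less than the measurement error, 19 moved by more and none of a gene at least 2-fold different changed sign. Smaller differences that changed sign included Glrb (0.01) and Grin2c (0.03) with median scaling and Gabra2 (0.11) and Gria4 (0.13) with normexp background correction. Signal over background limits the genes seen on 1 array, whose bounds set no upper limit. No paired analysis was possible because each group has 1 array.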

Other observations

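Among the receptor genes seen on the Pax6 array only, some had differences as measured that were far larger than their bounds. Chrna10 differed by 1.97 ± 1.26 as measured, with a bound of 0.24. Chrm5 differed by 1.09 ± 0.84 and Grin3b by 1.07 ± 0.63. Each measured difference is less than 2 times its error.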
